A study of Rattus norvegicus with 63 samples.

Results

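The expression of cell cycle and DNA replication genes was followed in rat liver after oral dosing with 15 compounds. A list of 55 genes was taken by symbol, and 43 of them were measured by at least 1 probe set that carried that symbol alone, out of 10411 genes on the array. Where a gene had several, the one brightest on average across the 63 arrays was taken. Of these arrays 45 were from treated animals, so a rise with treatment could favour a probe set in that choice. The 12 genes without such a probe set were Ccna2, Cdk2, Gmnn, Smc2, Bub1, Kif11, Kif23, Prc1, Nusap1 and Cenpf, together with Rrm2 and Hmgb2, whose probe sets carried several symbols and were not used here. The values are log2 expression values from Robust Multi-chip Average (RMA), a method that corrects background, brings arrays to a common distribution and summarises the probes of a set.

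The animals were males of the Wistar Hanover strain, of the stock Crl:WI[Gl/BRL/Han]IGS BR, aged 8 to 10 weeks when assigned to groups, and every compound or vehicle was given by gastric gavage. Dosing lasted 3 days for Wy-14643 (Wy, 60 mg/kg/day), Diethylstilbestrol (DES, 10 mg/kg/day) and Piperonylbutoxide (PBO, 1200 mg/kg/day). It lasted 7 days for Methapyrilene HCl (MPy, 60 mg/kg/day), Thioacetamid (TAA, 19.2 mg/kg/day), C.I Direct Black (CIDB, 146 mg/kg/day) and Dimethylnitrosamine (DMN, 4 mg/kg/day). It lasted 14 days for Acetamide (AA, 3000 mg/kg/day), Methylcarbamate (Mcarb, 400 mg/kg/day), Dehydroepiandrosterone (DHEA, 600 mg/kg/day), Ethionine (ETH, 200 mg/kg/day), Cyproterone acetate (CPA, 100 mg/kg/day), Cefuroxime (CFX, 250 mg/kg/day), Nifedipine (Nif, 3 mg/kg/day) and Phenobarbital sodium (PB, no dose in the labels). Each compound was represented by 3 animals, picked from 5 dosed animals after histopathology, and so not drawn at random. The 18 vehicle animals formed 6 control sets of 3. Methylcellulose (MC) sets 1, 2, 5 and 6 and corn oil (CO) set 4 are labelled as 14 days of dosing and CO set 3 as 7 days. MC set 1 served AA, DHEA, Mcarb, MPy, TAA and Wy, MC set 2 served CFX and Nif, MC set 5 served DES, ETH and PBO, MC set 6 served PB, CO set 3 served CIDB and DMN, and CO set 4 served CPA. By these labels the controls of Wy, DES, PBO, MPy and TAA were dosed for longer than the treated animals, and by the labels compound and dosing time cannot be told apart for them. The study's methods instead describe controls matched in time. For compounds not given in corn oil they name carboxymethyl cellulose, for the controls methylcellulose, and the study's table of compounds names both. The labels name methylcellulose. Neither difference could be settled, and the labels were followed here. Comparisons that used the same control set are not independent.

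The 43 genes act at successive steps of cell division. Cyclins bind and switch on cyclin-dependent kinases, which move a cell from growth into DNA synthesis and later into mitosis. The minichromosome maintenance (MCM) proteins license and unwind replication origins, PCNA and replication factor C hold the polymerase on the template, and enzymes such as thymidylate synthase supply the nucleotides. In mitosis Aurora and Polo kinases, the spindle checkpoint, the anaphase-promoting complex and motor proteins separate the chromosomes. Adult hepatocytes are mostly quiescent, and liver cells re-enter the cycle after partial hepatectomy, after cell loss or in response to mitogens such as ligands of the receptor PPARalpha, of which Wy is one.

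Many of these genes share short promoter elements. The cell cycle genes homology region (CHR, TTTGAA) and the CCAAT box are known from promoters of genes expressed in G2 and mitosis, and E2F sites (searched here as TTCCCGC or TTGGCGC) from promoters of genes expressed at the start of DNA synthesis. A RefSeq promoter of the GRCr8 assembly, 300 bases from 250 before to 50 after the transcription start, was found for 37 of the 43 genes. Those of Aurkb, Ube2c, Racgap1, Ccne2, Ccnd1 and Mcm4 were not used here. On either strand, TTTGAA was present in 17 of the 37 promoters (45.9%) against 18.1% of the promoters of all 27457 genes, CCAAT in 25 (67.6%) against 37.7% and an E2F site in 14 (37.8%) against 6.67%. The 10 promoters of genes with mitotic roles held TTTGAA in 7 cases and an E2F site in 1, and the 14 promoters of genes for replication and nucleotide supply held TTTGAA in 1 case and an E2F site in 9. In 3 promoters matches to different elements shared letters. A match is a description of the sequence and not a measured binding site.

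Below are 6 of these promoters, 5′ to 3′ on the strand of the gene, with CHR, CCAAT and E2F matches of either strand in capitals. They were chosen because Ccnb2, Cdk1, Cdc20 and Cks2 were among the genes that passed the test most often, and because Mcm5 and Tyms hold E2F sites and act in replication and nucleotide supply. The regions are chr8:79981609-79981908 on the minus strand for Ccnb2, chr20:19265043-19265342 on the plus strand for Cdk1, chr5:137255750-137256049 on the minus strand for Cdc20, chr17:13727470-13727769 on the minus strand for Cks2, chr19:13488563-13488862 on the plus strand for Mcm5 and chr9:120776034-120776333 on the minus strand for Tyms.
Ccnb2: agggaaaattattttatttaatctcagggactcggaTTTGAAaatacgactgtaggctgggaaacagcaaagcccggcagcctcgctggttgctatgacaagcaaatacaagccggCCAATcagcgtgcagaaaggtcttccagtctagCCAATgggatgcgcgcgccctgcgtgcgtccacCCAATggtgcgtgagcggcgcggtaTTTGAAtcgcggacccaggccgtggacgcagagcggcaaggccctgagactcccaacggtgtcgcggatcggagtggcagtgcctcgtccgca
Cdk1: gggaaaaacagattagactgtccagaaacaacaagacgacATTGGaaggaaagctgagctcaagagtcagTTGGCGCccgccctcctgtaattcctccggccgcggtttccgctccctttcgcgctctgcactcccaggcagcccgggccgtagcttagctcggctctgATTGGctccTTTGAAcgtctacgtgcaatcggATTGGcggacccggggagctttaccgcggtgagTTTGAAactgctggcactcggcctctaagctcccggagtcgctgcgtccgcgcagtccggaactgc
Cdc20: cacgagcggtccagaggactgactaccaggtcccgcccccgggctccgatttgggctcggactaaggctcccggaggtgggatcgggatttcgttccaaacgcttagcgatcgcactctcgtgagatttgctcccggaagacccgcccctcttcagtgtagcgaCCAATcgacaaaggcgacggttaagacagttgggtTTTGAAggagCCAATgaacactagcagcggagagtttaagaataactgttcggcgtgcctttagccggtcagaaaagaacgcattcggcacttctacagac
Cks2: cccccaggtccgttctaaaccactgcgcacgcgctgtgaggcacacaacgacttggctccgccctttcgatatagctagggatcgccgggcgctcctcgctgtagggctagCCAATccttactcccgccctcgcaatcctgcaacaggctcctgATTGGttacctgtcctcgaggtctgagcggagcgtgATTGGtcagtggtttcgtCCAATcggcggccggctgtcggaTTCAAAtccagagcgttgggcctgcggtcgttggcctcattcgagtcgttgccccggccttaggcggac
Mcm5: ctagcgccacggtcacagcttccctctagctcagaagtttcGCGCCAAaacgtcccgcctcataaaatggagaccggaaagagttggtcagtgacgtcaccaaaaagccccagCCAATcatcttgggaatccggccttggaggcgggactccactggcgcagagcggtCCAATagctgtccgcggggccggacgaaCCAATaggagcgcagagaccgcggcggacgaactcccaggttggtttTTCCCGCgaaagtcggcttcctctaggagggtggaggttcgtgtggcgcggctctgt
Tyms: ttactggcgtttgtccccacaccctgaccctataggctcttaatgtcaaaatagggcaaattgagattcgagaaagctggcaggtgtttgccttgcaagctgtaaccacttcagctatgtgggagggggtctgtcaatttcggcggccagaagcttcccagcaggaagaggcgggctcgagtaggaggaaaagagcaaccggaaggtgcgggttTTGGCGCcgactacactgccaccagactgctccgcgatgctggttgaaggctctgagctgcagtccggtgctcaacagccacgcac

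Of the 43 genes, 37 passed the test in at least 1 compound. The test was limma on all 63 arrays, each compound against its own control set, with Benjamini-Hochberg adjustment over all 15866 probe sets and a call at an adjusted p under 0.05. Over the 15 compounds there were 63 upward and 11 downward calls, spread over 10 compounds. With 3 animals on each side the smallest p of an exact permutation test is 0.1, so the calls rest on the spread pooled over all groups. In whole liver, fewer cells of a type and less RNA per cell cannot be told apart, and this holds for each result below. The arrays were checked against hepatocyte genes, whose 9 measured markers averaged between 12.72 and 13.23 on the log2 scale in the animals of all treated groups, against array medians of 7.42 to 7.51. The 43 genes themselves had mean log2 values from 4.63 (Smc4) to 10.07 (Cdk4), 6 of them lay under 6 on average, and 40 reached a group mean of 6 in at least 1 group.

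Wy raised more of the genes than any other compound, with 29 of 43 called upward and 0 downward, where 7.67% of all genes were called upward and 7.38% downward. MPy raised 12 and lowered 0, against backgrounds of 3.49% and 3.31%, and DES raised 10 and lowered 0, against 6.79% and 9.99%. CIDB went the other way, with 8 genes called downward and 1 upward, against 6.62% downward and 8.63% upward among all genes. ETH raised 5 and lowered 0 where 13.6% and 13.1% of all genes were called, and PBO raised 3 and lowered 0 where 7.04% and 8.44% were called, so both shares were close to or under their background. DHEA lowered 3 and raised 0, against 9.35% and 9.78%. AA, Mcarb and TAA raised 1 gene each and lowered 0, with upward backgrounds of 1.82%, 0.932% and 3.6% and downward backgrounds of 1.95%, 0.25% and 3.68%.

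In the other 5 compounds limma called 0 of the 43 genes. DMN called 2.88% of all genes upward and 0.855% downward, and 7 of the 43 genes were higher and 0 lower at an unadjusted p under 0.05. For CPA these backgrounds were 3.2% and 5.34%, for Nif 4.26% and 2.95%, for PB 0.999% and 0.509% and for CFX 0% in both directions. The unadjusted counts were 1 lower gene in CPA, 2 lower genes in Nif and 0 genes in PB and CFX.

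**Figure D1:**
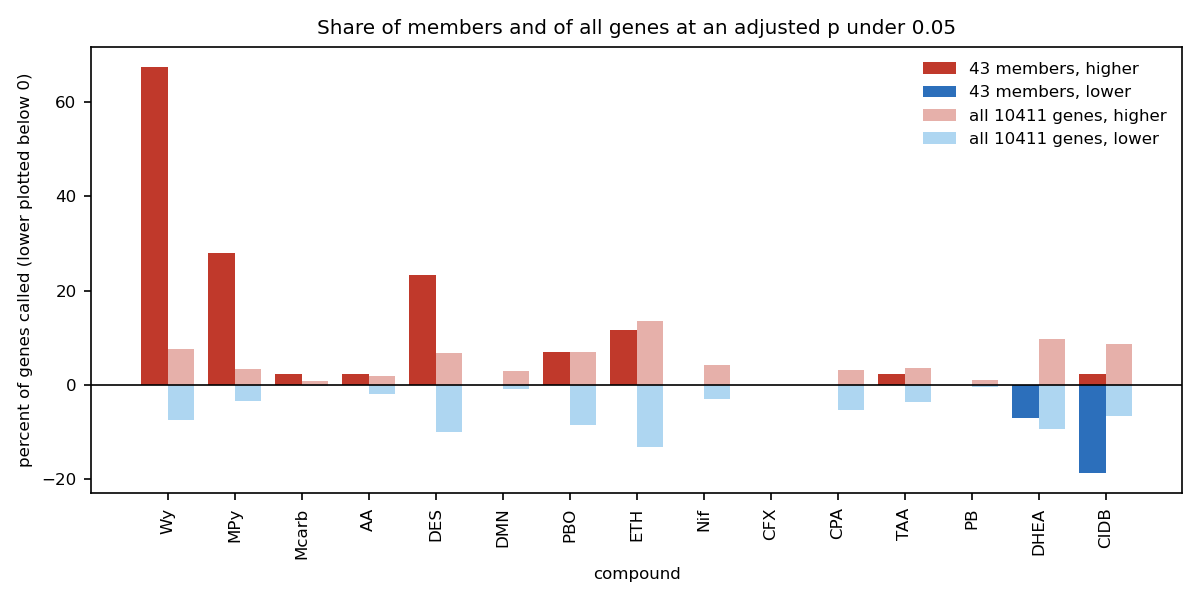
Percent of the 43 cell cycle and DNA replication genes (dark bars) and of all 10411 genes (light bars) called by limma in each of the 15 compounds, with upward calls above 0 and downward calls below 0. The dark bars stand clearly above the light ones in Wy (67.4% of the genes), MPy (27.9%) and DES (23.3%), and on the downward side in CIDB (18.6%).

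By role, the groups held 3 to 12 genes each and were compared only by their medians and counts. The 11 cyclins, kinases and partners include Cdkn2c, an inhibitor of cyclin-dependent kinases, which was called upward in Wy. In Wy the 5 spindle, kinetochore and cytokinesis genes were all called, with a median log2 difference of 1.50, and 7 of the 8 mitotic kinase, checkpoint and anaphase genes were called with a median of 0.85. The 4 chromosome structure and nuclear proteins had a median of 0.90 and 3 calls, the 11 cyclins, kinases and partners 0.63 and 7 calls, the 3 nucleotide enzymes 0.55 and 3 calls, and the 12 replication genes 0.38 and 4 calls. In MPy the spindle genes again had the highest median, 0.87 with 2 calls, while the mitotic kinases had 0.46 with 4 calls, the replication genes 0.22 with 0 calls and the nucleotide enzymes 0.14 with 1 call. In PBO the 3 calls all fell among the 12 replication genes, whose median was 0.37 against 0.17 for the spindle genes. The difference between roles was not tested, and the median over all genes lay between -0.03 and 0.02 in every compound.

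**Figure D2:**
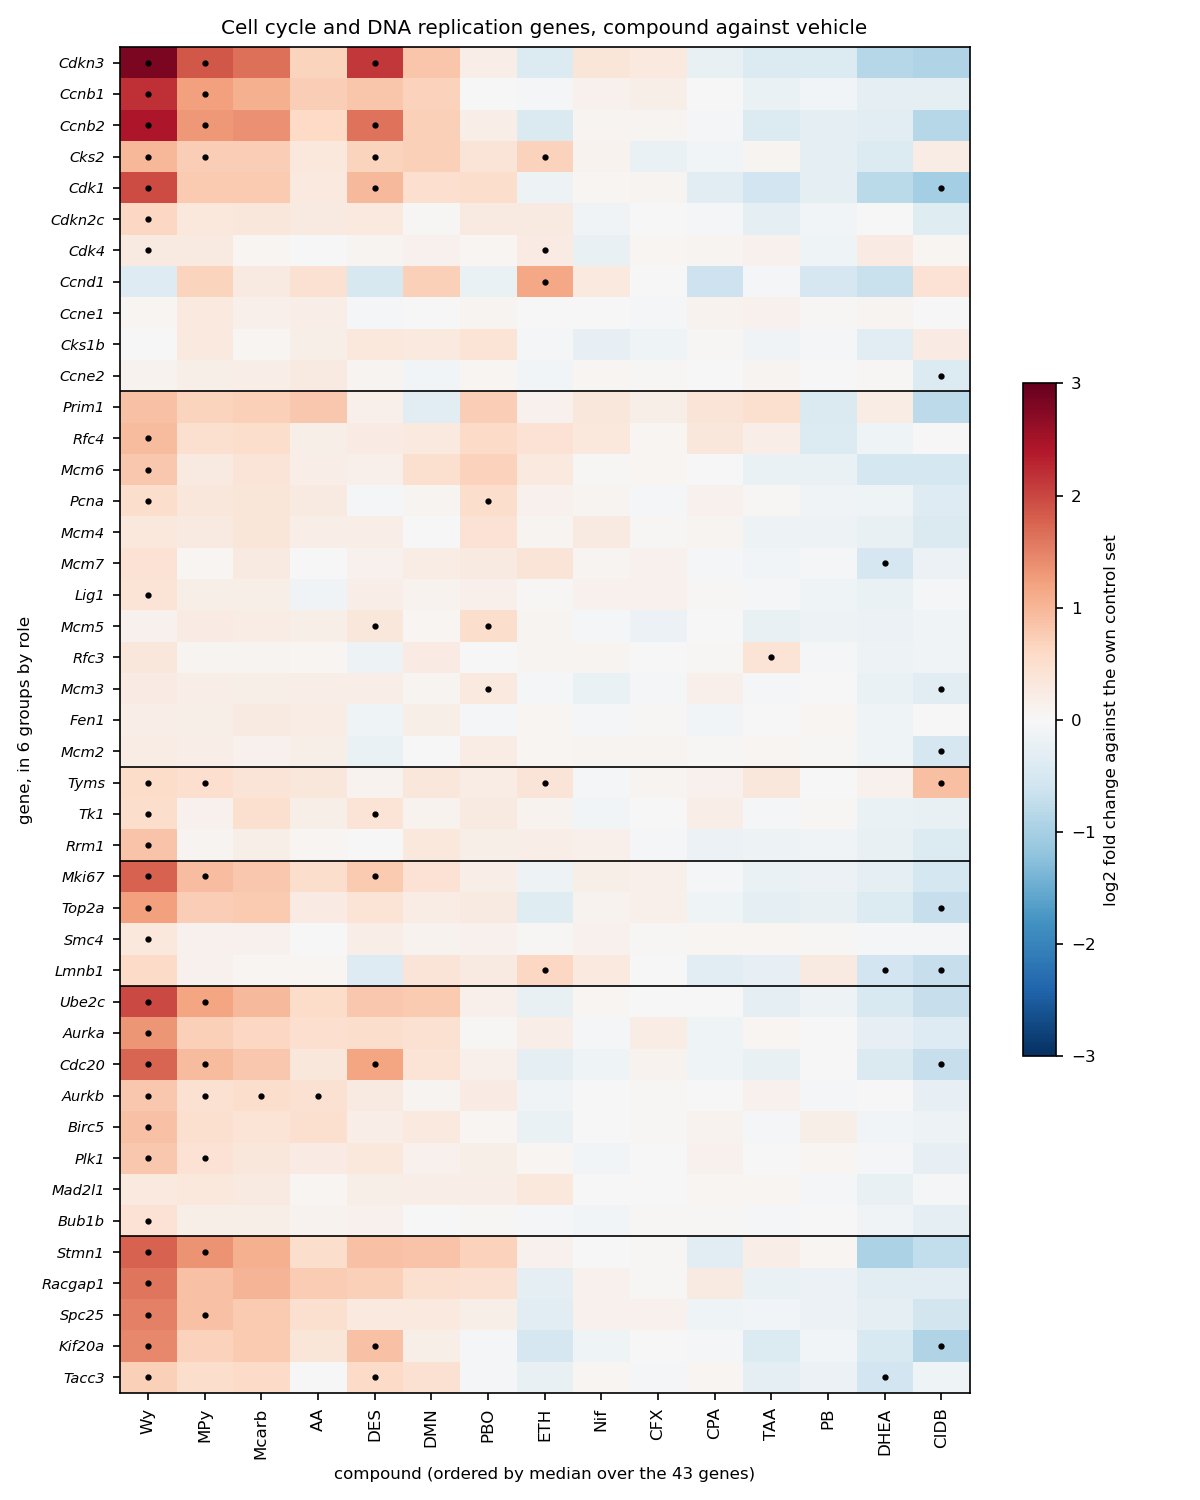
Log2 fold change of each of the 43 genes (rows, in 6 blocks by role) in each compound against its own control set (columns, ordered by the median over the 43 genes), with black dots on the genes called by limma. The red field is densest in the Wy column for cyclin B, Cdkn3 and the mitotic and spindle blocks, and the blue field in the CIDB column is broken by Tyms.

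Cdkn3, a phosphatase that acts on cyclin-dependent kinases, gave the largest difference in Wy. Its log2 values were 8.87, 9.81 and 9.36 in the Wy animals and 6.58, 6.29 and 6.71 in MC set 1. All 3 treated animals lay far above all 3 controls, and the log2 fold change was 2.82 ± 0.49 (SE, n = 3 against 3, limma adjusted p = 3.37e-05), which is 7.05-fold. Cyclin B2 (Ccnb2), a partner of CDK1 in mitotic entry, read 8.73, 9.75 and 9.27 after Wy and 6.72, 6.74 and 7.02 in the controls. Its groups did not overlap either, with a log2 fold change of 2.43 ± 0.38 (limma adjusted p = 7.47e-06). Cyclin B1 (Ccnb1) read 9.26, 9.98 and 9.48 against 7.44, 7.41 and 7.29, a rise of 2.20 ± 0.30 on the log2 scale. For the kinase they bind, Cdk1, the Wy animals read 8.62, 9.75 and 9.07 and the controls 7.23, 7.22 and 7.13.

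Cdk1 thus rose by 1.95 ± 0.34 log2 (SE, n = 3 against 3, limma adjusted p = 4.62e-05). Ube2c, the ubiquitin-conjugating enzyme of the anaphase-promoting complex, read 10.10, 10.50 and 9.81 after Wy against 8.15, 8.15 and 8.17, and Cdc20, the activator of that complex, read 9.0, 9.85 and 9.50 against 7.73, 7.66 and 7.72. Their log2 fold changes were 1.98 ± 0.32 and 1.75 ± 0.23. The proliferation antigen Mki67 rose from 5.22, 5.19 and 5.29 to 7.00, 7.13 and 6.89, and stathmin (Stmn1), which destabilises microtubules, from 8.01, 7.92 and 8.07 to 9.53, 10.16 and 9.65. In most of these genes replicate 2 of Wy was the highest animal: it was the highest in 32 of the 43 genes and in 32.6% of all genes. With all arrays Aurka, Birc5, Bub1b, Cdkn2c, Lig1, Mcm6, Racgap1, Rfc4, Rrm1 and Smc4 were called in Wy alone, but in a fit without the AA and Mcarb arrays, described with those compounds, all of them except Lig1 and Smc4 were also called in at least 1 other compound. The difference between compounds was not tested.

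Cyclins D1, E1 and E2, which act before DNA synthesis, did not pass the test in Wy, and cyclin D2 (Ccnd2), from the list of other proliferation genes, was lower, with a log2 difference of -0.51 ± 0.11 (limma adjusted p = 0.000508). Cyclin D1 (Ccnd1), the regulatory partner of Cdk4, read 8.33, 9.23 and 9.22 after Wy and 9.58, 8.76 and 9.60 in MC set 1, overlapping groups with a log2 difference of -0.39 ± 0.26 that did not pass (limma adjusted p = 0.405). Cyclins E1 and E2 differed by 0.07 ± 0.10 and 0.10 ± 0.09 log2. Cdk4 itself was called, but with 0.28 ± 0.09. In the same Wy livers 5 of 9 macrophage markers, 5 of 9 hepatocyte markers and 3 of 5 endothelial markers were called downward, with mean macrophage levels of 8.71 to 8.94 against 9.42 to 9.65. Stellate cell and matrix markers were lower as well, at 7.35 to 7.50 against 7.59 to 7.61 with 1 of 10 called. MC set 1 itself lay above MC sets 2, 5 and 6 in the endothelial and the stellate cell and matrix markers. In the macrophage markers it lay above MC sets 2 and 5, and the Wy levels were within the 8.70 to 9.32 of MC set 5. The part of these cells in the results was not tested.

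MPy, an antihistamine that damages rat hepatocytes, raised 12 of the genes, with cyclin B, mitotic and spindle genes among them. Cdkn3 read 8.10, 8.57 and 8.49 in the MPy animals and 6.58, 6.29 and 6.71 in MC set 1, with no overlap and a log2 fold change of 1.86 ± 0.49 (SE, n = 3 against 3, limma adjusted p = 0.0109). Stathmin read 9.49, 9.13 and 9.39 against 8.01, 7.92 and 8.07, a rise of 1.34 ± 0.35, and Ccnb2 read 7.96, 8.37 and 8.04 against 6.72, 6.74 and 7.02, a rise of 1.30 ± 0.38. Ccnb1, with 8.78, 8.65 and 8.44, and Ube2c, with 9.35, 9.10 and 9.60, rose by 1.24 ± 0.30 and 1.19 ± 0.32. The 3 MPy animals were close to each other in all of these genes. Cdc20 (8.74, 8.56 and 8.62) completed the 6 largest calls with 0.94 ± 0.23.

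All 43 genes had a positive difference in MPy, and in 32 of them the 3 treated animals lay above the 3 controls, where 14.7% of all genes did so. At an unadjusted p under 0.05, 30 of the 43 were higher. Cdk1 read 8.05, 7.59 and 8.28 and stood above its controls without passing the test. Without any 1 of the 6 animals the number of called genes fell to between 4 and 7, the lowest without replicate 3 of MPy. Macrophage markers averaged 9.55 to 9.93 in the MPy livers against 9.42 to 9.65, and limma called 0 of 9 in either direction, with 0 at an unadjusted p under 0.05. Stellate cell and matrix markers averaged 7.36 to 7.57 against 7.59 to 7.61, with 0 of 10 called and 1 lower at an unadjusted p under 0.05. MC set 1 itself lay above MC sets 2, 5 and 6 in these markers. Hepatocyte markers averaged 13.08 to 13.14 against 12.98 to 13.06. Of these 9, 0 were called, and 1 was higher and 1 lower at an unadjusted p under 0.05. The part of these cells was not tested.

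After 3 days of DES, a synthetic oestrogen, 10 genes were called upward. Cdkn3 read 8.76, 7.50 and 9.01 in the DES animals and 6.39, 6.27 and 6.29 in MC set 5, a log2 fold change of 2.11 ± 0.49 (SE, n = 3 against 3, limma adjusted p = 0.00138). Ccnb2 read 7.79, 7.74 and 9.43 against 6.67, 6.65 and 6.74, a rise of 1.63 ± 0.38, and Cdc20 read 8.52, 8.62 and 9.24 against 7.65, 7.71 and 7.45, a rise of 1.19 ± 0.23. The groups did not overlap in any of the 3, but replicate 3 stood above the other DES animals, and it was the highest of them in 30 of the 43 genes against 39.8% of all genes. Cdk1 (7.65, 7.21 and 8.20 against 6.81, 6.65 and 6.67), the mitotic kinesin Kif20a (7.73, 7.45 and 8.32 against 6.85, 6.92 and 7.06) and Mki67 (5.81, 5.65 and 6.45 against 5.27, 5.01 and 5.26) rose by 0.98 ± 0.34, 0.89 ± 0.27 and 0.79 ± 0.28 log2. Without replicate 3 of DES, 3 genes were called upward and 1 downward, and over the 6 animals left out in turn the total ranged from 4 to 9. In the DES livers the mean of the biliary and oval cell markers was lower without overlap, at 6.59 to 6.72 against 6.86 to 6.90, and that of the stellate cell and matrix markers higher, at 7.48 to 7.60 against 7.29 to 7.44, and their part was not tested.

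**Figure D3:**
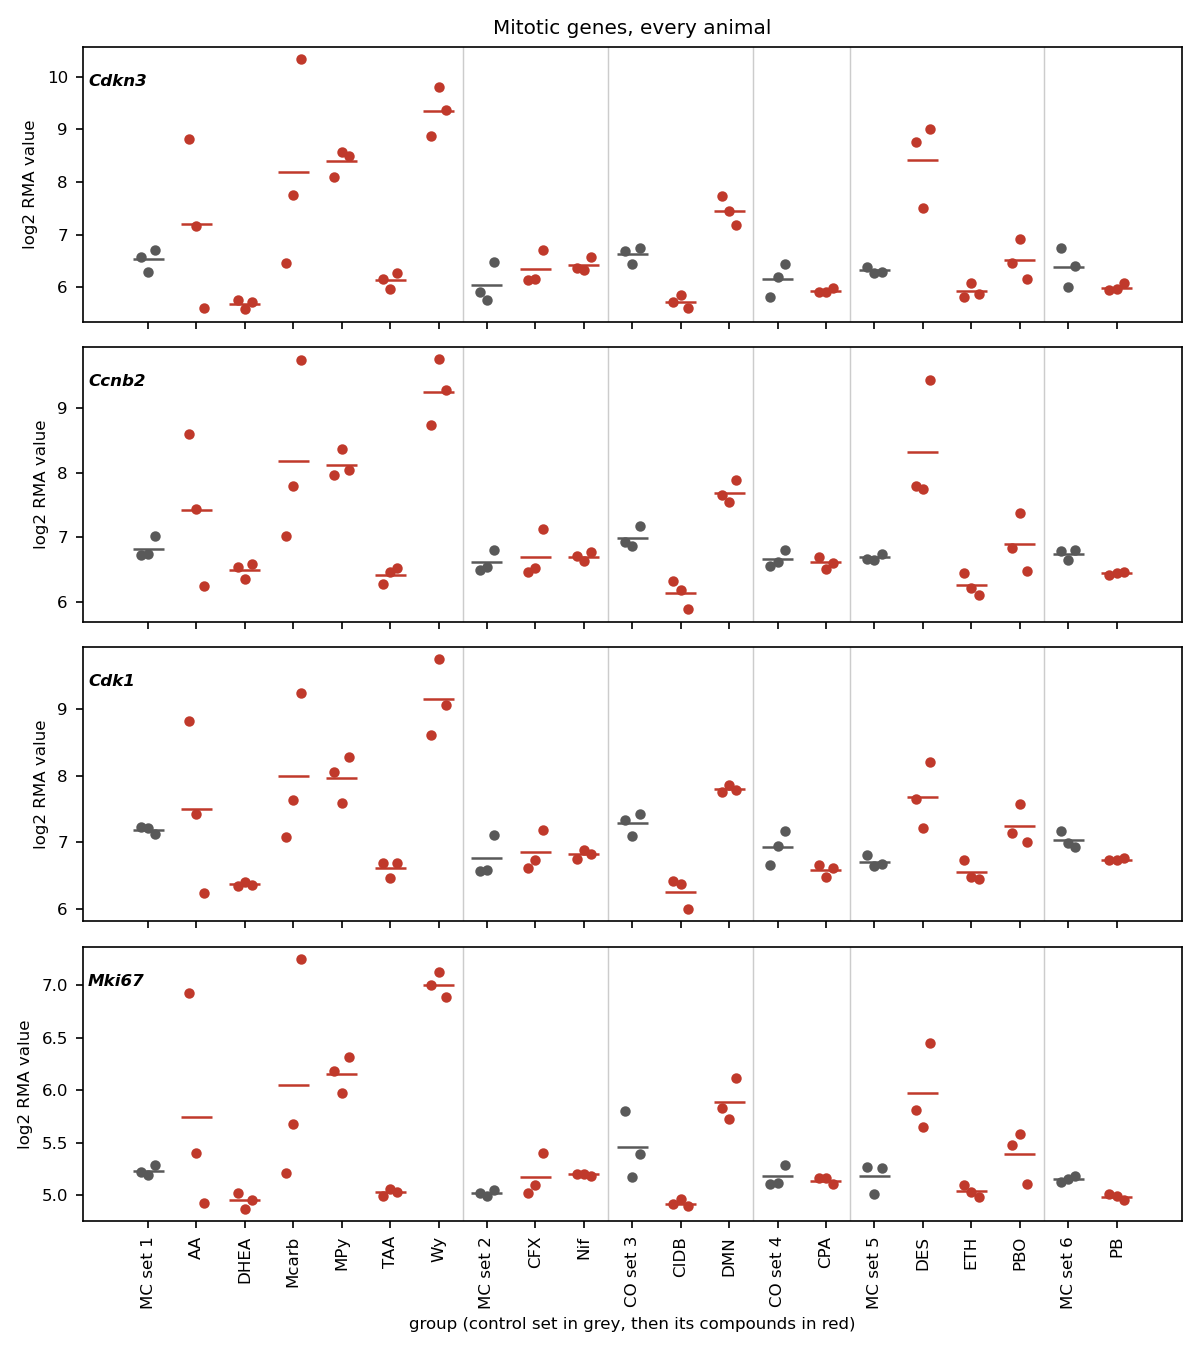
Log2 RMA values of Cdkn3, Ccnb2, Cdk1 and Mki67 in every animal (points) with the group mean (bars), control sets in grey and the compounds that used each set in red to their right. Wy and MPy animals lie together above MC set 1, whereas the 3 animals of AA are spread from under the control level, and those of Mcarb from about the control level, up to near or beyond the Wy level.

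AA and Mcarb differed from all other groups in how unlike their 3 animals were. The median SD of the 43 genes within a group was 0.46 in AA and 0.47 in Mcarb, while the other 19 groups lay between 0.08 and 0.25, and the median SD over all genes was 0.10 and 0.13. Cdkn3 read 8.82, 7.16 and 5.61 in AA replicates 1, 2 and 3, and 6.45, 7.76 and 10.33 in Mcarb replicates 1, 2 and 3, against 6.29 to 6.71 in MC set 1. Mki67 read 6.93, 5.40 and 4.93 in AA and 5.21, 5.68 and 7.25 in Mcarb, against 5.22, 5.19 and 5.29. In both compounds the values therefore ran from at or under the control level to near or beyond that of the Wy animals, and Mcarb replicate 3 had the highest Cdkn3 value of all 63 arrays.

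The genes moved together within an animal. AA replicate 1 was the highest of its group in 41 of the 43 genes, against 33.9% of all genes, and Mcarb replicate 3 in 40 of 43, against 32.6%. The median of the 43 genes relative to the mean of MC set 1 was 0.73, 0.12 and -0.12 in the 3 AA animals and -0.01, 0.36 and 0.84 in the 3 Mcarb animals, and it was 0.65, 0.76 and 0.59 in the Wy animals. The order of the animals rests on the measured values and replicate numbers carry no order of their own. In Mcarb 43 of 43 differences were positive and 28 were higher at an unadjusted p under 0.05, yet the adjusted test called Aurkb alone.

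Aurkb, the kinase of the chromosomal passenger complex, read 6.64, 6.81 and 7.43 in Mcarb and 7.33, 6.91 and 6.41 in AA, against 6.43, 6.50 and 6.35. The Mcarb animals all lay above the controls (0.53 ± 0.14 log2, limma adjusted p = 0.0435), and the AA animals overlapped them (0.46 ± 0.14, adjusted p = 0.0486). Both calls were lost once the median of each array was subtracted. Without Mcarb replicate 1, 23 genes were called upward in Mcarb, and without replicate 3, 0 were called. Without AA replicate 3, 5 genes were called in AA, and without replicate 1, 0 were called. Macrophage markers averaged 10.01, 9.87 and 10.92 in Mcarb replicates 1, 2 and 3 and 9.72, 9.96 and 9.66 in AA, against 9.42 to 9.65 in MC set 1. The animal highest in the cell cycle genes was the highest in these markers in Mcarb but not in AA. Erythroid markers averaged 10.21, 9.76 and 9.35 in Mcarb and 9.27, 10.15 and 10.09 in AA, against 9.84 to 10.41. That animal was the lowest in them in both compounds. Hepatocyte markers were 13.10, 12.96 and 12.96 in Mcarb and 13.18, 12.98 and 13.20 in AA. The part of the cell composition in the spread was not tested.

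AA, Mcarb and TAA are small amide, carbamate and thioamide compounds, TAA being AA with sulphur in place of oxygen. Their doses were 3000, 400 and 19.2 mg/kg/day and TAA was given for 7 days and the others for 14, so no comparison at a matched dose and time was possible. The median log2 difference of the 43 genes was 0.25 in AA, 0.38 in Mcarb and -0.06 in TAA. In TAA only Rfc3, a subunit of the clamp loader, was called upward, with 7.38, 7.47 and 7.19 against 7.02, 6.81 and 7.01 and a log2 fold change of 0.40 ± 0.12 (limma adjusted p = 0.0407). This call was 2.33% of the 43 genes beside 3.6% of all genes, and without 1 animal at a time 0 to 1 genes were called. For Rfc3 MC set 5 read 7.24, 7.17 and 6.99 and overlapped the TAA animals. Cdk1 in TAA read 6.69, 6.47 and 6.69 against 7.23, 7.22 and 7.13, under all its controls. The TAA values of Cdk1 overlapped those of MC set 2, at 6.57, 6.59 and 7.11, and of MC set 5, at 6.81, 6.65 and 6.67. They lay under those of MC set 6, at 7.17, 6.99 and 6.93.

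**Figure D4:**
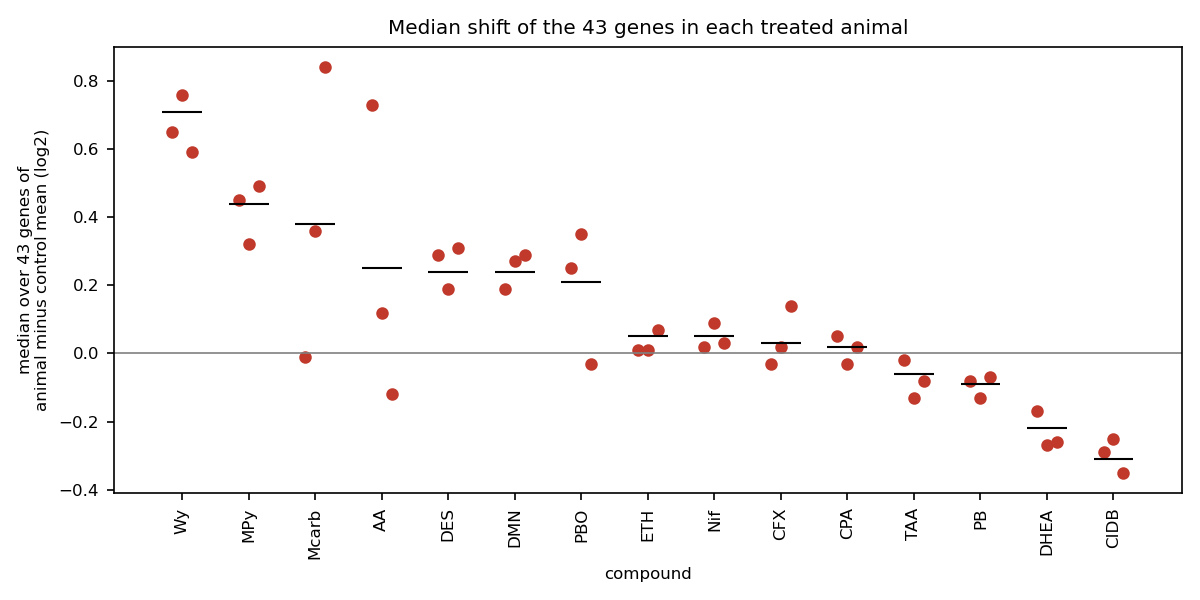
Median over the 43 genes of the difference between each treated animal and the mean of its control set (points, log2), with the median log2 fold change of the compound as a bar. The 3 points lie close together in most compounds, far apart in AA (0.73 to -0.12) and Mcarb (-0.01 to 0.84), and under 0 in all animals of CIDB, DHEA, PB and TAA.

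The spread of AA and Mcarb also entered the test of the other compounds, because the fit shares 1 estimate per gene. The median residual SD of the 43 genes was 0.209 with all 63 arrays and 0.166 without the 6 arrays of AA and Mcarb, whereas over all genes it was 0.12 and 0.119. Fitted without those 6 arrays, an alternative chosen after the values were seen, the upward calls were 34 in Wy, 24 in MPy, 17 in DES, 10 in PBO and 8 in DMN, and the downward calls were 20 in CIDB and 10 in DHEA. The matching shares of all genes hardly moved, at 7.96%, 4.14%, 7.23%, 7.26% and 3.53% upward and at 7.12% and 9.82% downward. The fold changes themselves are the same in both fits.

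The genotoxic carcinogens CIDB, an azo dye, and DMN, a nitrosamine that alkylates DNA, shared CO set 3 and 7 days of dosing. In CIDB 37 of the 43 differences were negative with a median of -0.31, and in 29 genes the 3 treated animals lay under the 3 controls, where 14.7% of all genes did so. In DMN 39 of 43 were positive with a median of 0.24, and 19 genes lay above their controls, where 13.4% of all genes did so. The median level of the 43 genes per array was 6.90 to 7.01 in CIDB and 7.53 to 7.64 in DMN. It was 7.23 to 7.45 in CO set 3 and lower, at 7.07 to 7.19, in CO set 4. The size of both shifts thus depends on the control set. The compounds were not tested against each other.

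Cdk1 read 6.42, 6.37 and 6.00 in CIDB and 7.34, 7.10 and 7.42 in CO set 3. The groups did not overlap and Cdk1 fell by 1.03 on the log2 scale (SE 0.34, n = 3 against 3, limma adjusted p = 0.036). Kif20a read 6.48, 6.31 and 6.35 against 7.16, 7.23 and 7.48, with a log2 fold change of -0.91 ± 0.27. The nuclear lamina protein lamin B1 (Lmnb1) read 7.01, 6.98 and 7.18 against 7.79, 7.82 and 7.65, and the topoisomerase Top2a, which untangles sister chromatids, 6.89, 6.43 and 6.50 against 7.33, 7.12 and 7.45. With Cdc20 (7.12, 7.18 and 7.10 against 7.89, 7.73 and 7.86), their log2 fold changes lay between -0.70 and -0.69. Mcm2, Ccne2 and Mcm3 were also lowered, by -0.50 ± 0.10, -0.40 ± 0.09 and -0.31 ± 0.09. For each of these genes every CIDB animal lay under every animal of CO set 3. For Mcm2, Ccne2 and Mcm3 the CIDB animals overlapped CO set 4, which read 7.13 to 7.34, 4.54 to 4.61 and 7.37 to 7.52 against 6.93 to 7.29, 4.28 to 4.63 and 7.46 to 7.56 in CIDB. With both corn oil sets pooled as controls 6 genes were called downward and Tyms upward, and Mcm3 (-0.13) and Top2a (-0.55) no longer passed. Of all genes, 9.17% were then called downward and 9.74% upward.

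Thymidylate synthase (Tyms), which makes the thymidine nucleotide, was the exception. It read 7.23, 6.82 and 7.04 in CIDB against 6.10, 6.22 and 6.07, a rise of 0.90 ± 0.13 log2 or 1.87-fold (limma adjusted p = 4.24e-07), and these were the highest Tyms values of any group. In DMN the values were 6.29, 6.41 and 6.67, above the controls but without passing (0.33 ± 0.13, adjusted p = 0.151). The DMN animals had their largest differences in Stmn1 (8.89, 9.23 and 9.15 against 8.60, 8.00 and 8.10), Cdkn3 (7.73, 7.44 and 7.18 against 6.68, 6.44 and 6.74) and Ube2c (9.18, 9.11 and 9.27 against 8.49, 8.13 and 8.60). Their log2 differences of 0.86 ± 0.35, 0.83 ± 0.49 and 0.78 ± 0.32 did not pass with all arrays, and all 3 were called when the AA and Mcarb arrays were left out, with adjusted p-values from limma of 0.0103, 0.0357 and 0.00157. CO set 3 was itself spread in some genes, with Stmn1 at 8.60 and Prim1 at 8.04 in replicate 4 against 6.72 and 6.98 for Prim1 in the other control animals.

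Among 15 measured cell cycle inhibitors and pocket proteins, 6 were called upward and 0 downward in CIDB and 3 upward and 0 downward in DMN. Of all genes, 8.63% were called upward and 6.62% downward in CIDB, and 2.88% and 0.855% in DMN. Cdkn1a, which encodes the p53 target and kinase inhibitor p21, rose by 3.96 ± 0.26 log2 in CIDB and by 2.33 ± 0.26 in DMN, and cyclin G1 (Ccng1), another p53 target, by 3.31 ± 0.15 and 2.06 ± 0.15. In smaller size Ccng1 was also called upward in TAA (1.39), Mcarb (0.58), MPy (0.56), ETH (0.55) and DES (0.45), each ± 0.15. Cdkn1a was called upward in ETH (0.86 ± 0.26) and DES (0.76 ± 0.26) as well. The pocket protein Rb1 was called downward in ETH (-1.33), DES (-1.05), PBO (-0.72) and CPA (-0.53), each ± 0.17. Rbl2 was called downward in AA, DES, DHEA, ETH, MPy, PBO, TAA and Wy. No call of these genes went the other way. Their part in the cell cycle values was not tested. Btg3 and Cdkn1c, which restrain proliferation, rose by 1.16 ± 0.14 and 1.09 ± 0.14 in CIDB. Macrophage markers rose in both against CO set 3, with 5 of 9 called in CIDB and 4 of 9 in DMN. Their means were 9.45 to 9.72 in CIDB and 9.74 to 10.03 in DMN. In CO set 3 they were 8.78 to 9.30, and in CO set 4 they were 9.23 to 9.76. The 4 erythroid markers measured were all called downward in CIDB, at means of 7.99 to 8.19 against 10.48 to 10.96. Of 8 biliary and oval cell markers 3 were called upward in CIDB, at means of 6.92 to 7.15 against 6.65 to 6.80. The part of these cells in the cell cycle values was not tested.

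DHEA, a steroid that induces peroxisome proliferation in rats, lowered Lmnb1, Tacc3 and Mcm7. These calls were 6.98% of the 43 genes, under the 9.35% of all genes called downward in DHEA. Lmnb1 read 7.47, 7.36 and 7.25 in DHEA and 8.07, 7.72 and 8.03 in MC set 1, with a log2 fold change of -0.58 ± 0.20 (SE, n = 3 against 3, limma adjusted p = 0.0379). Tacc3, a spindle protein, read 6.19, 6.36 and 6.23 against 6.89, 6.77 and 6.85, and the helicase subunit Mcm7 read 7.93, 8.09 and 8.01 against 8.55, 8.51 and 8.46, with -0.58 ± 0.18 and -0.50 ± 0.16. No treated animal overlapped an animal of MC set 1 in these 3 genes, but for Lmnb1 MC set 2 read 7.49, 7.66 and 7.43. Cdkn3 (5.75, 5.58 and 5.71 against 6.58, 6.29 and 6.71) and Cdk1 (6.34, 6.41 and 6.36 against 7.23, 7.22 and 7.13) were under all controls as well, without passing with all arrays. Without 1 animal at a time 0 to 3 genes were called. In these livers 7 of 9 macrophage markers were called downward, at means of 8.65 to 9.04 against 9.42 to 9.65, 3 of 10 stellate cell and matrix markers, at 7.12 to 7.29 against 7.59 to 7.61, and 3 of 5 endothelial markers, at 8.09 to 8.32 against 8.58 to 8.69. Of the 9 hepatocyte markers 4 were called downward and 1 upward. MC set 1 itself lay above MC sets 2, 5 and 6 in the stellate cell and matrix markers and in the endothelial markers. Its macrophage markers lay above those of MC set 2, at 8.80 to 9.21, and MC set 5, at 8.70 to 9.32. Those of MC set 6 were at 9.07 to 9.86. The part of these cells was not tested.

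ETH, an antagonist of methionine, stood apart by cyclin D1. Ccnd1 read 10.10, 10.52 and 11.09 in ETH and 9.64, 9.06 and 9.50 in MC set 5, with no overlap and a rise of 1.17 ± 0.26 log2 or 2.25-fold (limma adjusted p = 0.000551). Cks2, a small subunit of cyclin-dependent kinase complexes, rose by 0.69 ± 0.23, Lmnb1 by 0.61 ± 0.20 and Tyms by 0.38 ± 0.13, each without overlap, and Cdk4 by 0.25 ± 0.09 with overlap. No mitotic or spindle gene was called with all arrays. Cyclin B2 and Kif20a were lower in every ETH animal than in any control, without passing. Ccnb2 read 6.45, 6.22 and 6.11 against 6.67, 6.65 and 6.74, and Kif20a 6.39, 6.46 and 6.45 against 6.85, 6.92 and 7.06. Without the AA and Mcarb arrays Mad2l1 was called upward and Kif20a downward in ETH. All 9 macrophage markers were called upward in ETH, with means of 10.18 to 10.25 against 8.70 to 9.32, and so were 3 of 8 biliary and oval cell markers, with means of 7.15 to 7.40 against 6.86 to 6.90, among them Krt19 (1.90 ± 0.27) and Afp (0.71 ± 0.18). Of the 4 erythroid markers 2 were called downward, with means of 9.29 to 9.98 against 10.16 to 10.64. The part of these cells in the Ccnd1 value was not tested.

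After PBO, a pesticide synergist given here for 3 days, the replication genes Mcm5, Pcna and Mcm3 were called, a share of 6.98% beside 7.04% of all genes. Mcm5, a subunit of the replicative helicase, read 7.77, 7.85 and 7.19 against 7.04, 7.05 and 7.16 (0.52 ± 0.11 log2, limma adjusted p = 0.000976), and Mcm3 read 7.84, 8.24 and 7.82 against 7.62, 7.68 and 7.70 (0.30 ± 0.09, adjusted p = 0.0209). Pcna, the sliding clamp, read 10.21, 10.27 and 9.54 against 9.66, 9.26 and 9.52 (0.53 ± 0.16, adjusted p = 0.0178). Replicate 3 stayed near the controls for Mcm5 and Pcna, and its median over the 43 genes was -0.03, compared with 0.25 and 0.35 in the other animals. Without it 7 genes were called, and without replicate 2 only 1. Biliary and oval cell markers averaged 6.73 to 6.82 in PBO against 6.86 to 6.90, with 2 of 8 called downward, and of the 9 hepatocyte markers 2 were called upward and 2 downward. Their part in these values was not tested.

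**Figure D5:**
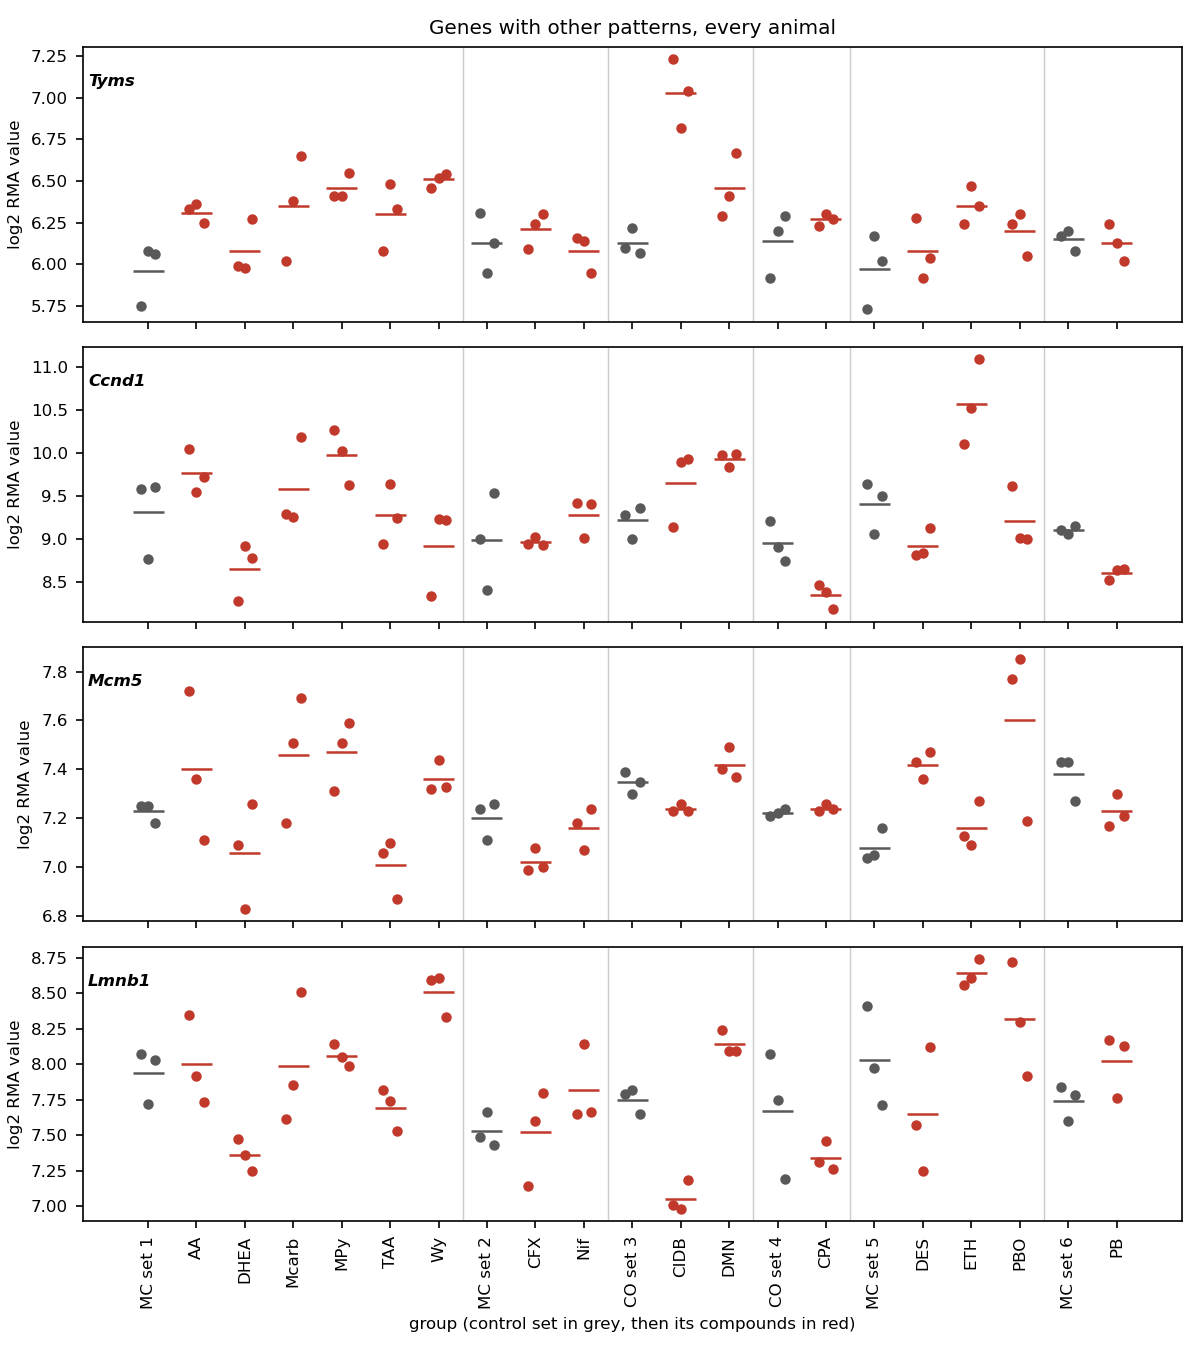
Log2 RMA values of Tyms, Ccnd1, Mcm5 and Lmnb1 in every animal (points) with the group mean (bars), control sets in grey and the compounds that used each set in red to their right. Tyms is highest in CIDB, Ccnd1 in ETH and Mcm5 in replicates 1 and 2 of PBO, and Lmnb1 is lowest in CIDB.

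Most upward calls across compounds fell to Cks2, Tyms and Aurkb, each in 4, and Cdc20 had 3 upward and 1 downward. Cks2 read 9.61, 10.18 and 9.56 in Wy and 9.61, 9.45 and 9.52 in MPy against 8.66, 8.78 and 8.95, and 8.88, 8.87 and 9.30 in DES and 8.94, 8.93 and 9.24 in ETH against 8.51, 7.91 and 8.63. Its log2 fold changes were 0.99 ± 0.23, 0.73 ± 0.23, 0.67 ± 0.23 and 0.69 ± 0.23. No treated animal of the 4 compounds overlapped its own control set. The DES and ETH animals did overlap MC set 1, at 8.66, 8.78 and 8.95, and MC set 6, at 9.04, 8.25 and 8.70. Tyms read 6.46, 6.52 and 6.54 in Wy and 6.41, 6.41 and 6.55 in MPy against 5.75, 6.08 and 6.06, and 6.24, 6.47 and 6.35 in ETH against 5.73, 6.17 and 6.02. Aurkb read 7.15, 7.34 and 7.24 in Wy and 6.95, 6.76 and 6.91 in MPy, all above the controls, with rises of 0.82 ± 0.14 and 0.45 ± 0.14. Mki67 in MPy read 6.18, 5.97 and 6.32, a rise of 0.92 ± 0.28. By role, the most frequently called genes were Cks2 among the cyclins and partners, Tyms in nucleotide supply, Mki67 and Lmnb1 among the nuclear proteins, Aurkb and Cdc20 among the mitotic kinases and regulators and Kif20a and Tacc3 among the spindle genes. Among the replication genes Mcm3, Mcm5 and Pcna were called in 2 compounds each. In opposite directions in different compounds were Cdc20, Cdk1, Kif20a, Lmnb1, Mcm3, Tacc3 and Top2a, for each of which CIDB or DHEA gave the lower value.

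With all arrays the test called 6 genes in no compound: Prim1, Mcm4, Cks1b, Mad2l1, Fen1 and Ccne1. In the fit without the AA and Mcarb arrays all of them except Fen1 were called in at least 1 compound. Their mean absolute log2 fold change over the 15 compounds ran from 0.08 for cyclin E1 to 0.48 for the primase subunit Prim1. Prim1 read 7.21, 7.20 and 7.65 in Wy against 6.45, 6.33 and 6.64, above the controls, with 0.88 ± 0.32 and a limma adjusted p of 0.0636. Mad2l1, a spindle checkpoint protein with a mean log2 value of 5.38, was near the low end of the values, which began at 3.96.

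Between vehicle groups 2 of the 43 genes were called, 1 in each of 2 pairs. Cdk4 was called lower in MC set 2 (9.87, 9.98 and 9.91) than in MC set 6 (10.54, 10.11 and 10.08), by -0.32 ± 0.09 log2 (limma adjusted p = 0.0466), where 1.29% of all genes were higher and 0.567% lower. Mcm3 was called higher in CO set 3 (7.84, 7.71 and 7.89) than in CO set 4 (7.37, 7.52 and 7.44), by 0.37 ± 0.09 (adjusted p = 0.0484), against backgrounds of 0.154% in each direction, and these sets also differ in dosing days. The median difference of the 43 genes between CO sets 3 and 4 was 0.19, near the 0.24 of DMN and the 0.21 of PBO against their controls, with 39 of 43 higher in set 3, which is the control set of CIDB and DMN. In 14 genes the animals of set 3 lay above all those of set 4, where 6.13% of all genes did so, 8 were higher at an unadjusted p under 0.05, and the largest difference was 0.92. In MC set 2 against 6, 38 of 43 were lower with a median of -0.14, and 4 were lower at an unadjusted p under 0.05. The other 5 pairs had 0 calls among the 43 genes by limma, with 2 higher and 0 lower at an unadjusted p under 0.05 for MC set 1 against 2, and 0 higher and 1 to 3 lower for the rest. In MC set 1 against 2, 33 of 43 were higher with a median of 0.14. In 13 genes the animals of set 1 lay above all those of set 2, where 11.1% of all genes did so. Of all genes, 0.413% were called higher and 0.384% lower in MC set 1 against 2, 0.759% and 1.21% in set 1 against 5, 4.67% and 2.66% in set 1 against 6, 0.874% and 1.45% in set 2 against 5 and 7.19% and 3.11% in set 5 against 6.

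The study's classes were compared with the compound as the unit, using the mean log2 fold change of each. The 8 non-genotoxic carcinogens (AA, DES, DHEA, ETH, Mcarb, MPy, PB and PBO), 2 genotoxic carcinogens (CIDB and DMN) and 2 non-carcinogens (CFX and Nif) entered, while CPA, TAA and Wy have no class in the labels. None of the 43 genes was called by limma in any of the 3 contrasts, where 0.115%, 0.0192% and 0.0192% of all genes were called for non-genotoxic against genotoxic carcinogens, non-genotoxic carcinogens against non-carcinogens and all carcinogens against non-carcinogens. At an unadjusted p under 0.05 the first contrast had 6 of the 43 genes, 5 of them higher in the non-genotoxic class, against 12.7% of all genes, and the other contrasts had 0 of 43 against 11.1% and 9.56%. The genotoxic class held CIDB and DMN, whose medians had opposite signs. Compounds that share a control set are not fully independent, which holds for most compounds in these contrasts.

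A list of 72 other proliferation genes, of which 39 were measured, gave 22 upward and 2 downward calls in Wy, with a median log2 difference of 0.46. Of all genes, 7.67% were called upward and 7.38% downward in Wy. The largest of the list in Wy were Cdca3 (2.10 ± 0.32), Knstrn (2.05 ± 0.30), Kif22 (1.41 ± 0.25) and Tubb5 (1.21 ± 0.24). DES gave 6 upward calls, led by Knstrn (1.10 ± 0.30), MPy 5, led by the checkpoint kinase Chek1 (0.54 ± 0.15), and PBO 5, led by the kinetochore gene Zwint (1.72 ± 0.18), each with 0 downward. The upward shares of all genes were 6.79% in DES, 3.49% in MPy and 7.04% in PBO, and the downward shares 9.99%, 3.31% and 8.44%. CIDB gave 3 upward and 8 downward calls, where 8.63% of all genes were called upward and 6.62% downward. The phosphatase Cdc25b was at -1.16 ± 0.16 and the transcription factor Mybl2 at 0.84 ± 0.11. DMN gave 4 upward and 0 downward calls, led by Dut at 0.71 ± 0.20, against 2.88% and 0.855% of all genes. DHEA, in which 3 of the 43 genes were lowered, gave 3 upward and 2 downward calls here, with Zwint at 1.17 ± 0.18. Of all genes, 9.78% were called upward and 9.35% downward in DHEA. There were 2 upward and 2 downward calls in ETH, 1 and 2 in CPA, 2 and 1 in Nif, 2 and 0 in TAA and 1 and 0 in both AA and Mcarb. The matching shares of all genes were 13.6% and 13.1% in ETH, 3.2% and 5.34% in CPA and 4.26% and 2.95% in Nif. They were 3.6% and 3.68% in TAA, 1.82% and 1.95% in AA and 0.932% and 0.25% in Mcarb. Limma called 0 in PB, where 2 genes were higher and 1 lower at an unadjusted p under 0.05, and 0 in CFX, where there were 0 in either direction. The shares of all genes were 0.999% upward and 0.509% downward in PB and 0% in both directions in CFX. This list, like the 43 genes, was written with earlier results of these data known.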

How the data were processed

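RNA from 63 rat livers was measured on Affymetrix RAE230A arrays. The deposited values are log2 expression values of 15866 probe sets. The authors converted scanner images to CEL files with Affymetrix Microarray Suite and processed them by RMA in R's affy package, whose version is not given in the sources used here. RMA sets all arrays to 1 distribution, so a shift of most genes at once is not seen. No read depth exists for arrays and the number of arrays limits the precision.

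Symbols came from the platform annotation: 12783 probe sets had 1 symbol, 312 several and 2771 none. One model with a mean per group was fitted by limma (version 3.58.1, R 4.3.3) to the 63 arrays together (42 residual degrees of freedom, prior 4.81) and was tested on simulated data. Tables were read with the data.table package (version 1.17.8), pandas 2.3.3 and matplotlib 3.10.9 in Python 3.11.15. Replicates are separate animals.

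Genes were named by rule: per compound up to 6 called genes with the largest change and no overlap between groups, the 10 called in most compounds, and those called in none. The genes and lists were chosen with earlier results of these data known. The alternatives were the mean over a gene's probe sets, a filter at a group mean of 6, the 6 arrays of a comparison alone, pooled controls, array medians subtracted, a 2.5-fold criterion, a replicate block, leaving out each animal and, added later, leaving out the AA and Mcarb arrays.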

Additional observations from a re-analysis of the deposited data

How the results depend on the processing

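The counts below are of the 43 genes called, and the cause of each move was not tested unless the alternative's construction shows it. Leaving out 1 animal at a time gave 24 to 29 in Wy, 4 to 7 in MPy, 4 to 9 in DES, 5 to 7 in CIDB, 0 to 3 in DHEA, 2 to 5 in ETH, 1 to 7 in PBO, 0 to 5 in AA, 0 to 23 in Mcarb and 0 to 1 in TAA, and 0 to 1 for MC set 1 against 6, MC set 2 against 6 and MC set 5 against 6 and 0 for CO set 3 against 4. A 2.5-fold criterion, stricter by construction, left 11 in Wy, 2 in MPy, 2 in DES and 0 in CIDB, DHEA, ETH, PBO, AA, Mcarb and TAA. The 6 arrays of a comparison alone gave 21 in MPy, 17 in DHEA, 14 in CIDB, 11 in DMN, 3 in TAA, 1 in CPA and 0 in AA, Mcarb, MC set 2 against 6 and CO set 3 against 4. Controls pooled by vehicle gave 22 in MPy, 21 in Mcarb, 10 in PBO, 7 in DHEA, 5 in DMN, 3 in AA, 2 in Nif and 1 in CPA. These calls were upward in MPy, Mcarb, PBO, DMN and AA, with 6.98%, 5.47%, 8.67%, 3.26% and 1.63% of all genes. They were downward in DHEA, Nif and CPA, with 10.5%, 6.28% and 5.36% of all genes. Subtracting array medians gave 0 in AA, Mcarb and MC set 2 against 6, and 2 in CO set 3 against 4. The mean of a gene's probe sets gave 5 in PBO and 0 in AA, MC set 2 against 6 and CO set 3 against 4, and the low-value filter 5 in PBO, 2 in Mcarb and 0 in CO set 3 against 4.

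Without the AA and Mcarb arrays, an alternative chosen after seeing the data, the counts were 24 in MPy, 21 in CIDB, 17 in DES, 11 in DHEA, 10 in PBO, 9 in ETH, 8 in DMN, 1 for MC set 1 against 6, 1 for MC set 5 against 6 and 2 for CO set 3 against 4. The residual SD of the 43 genes is smaller in that fit. The class contrasts gave 0 throughout. Of single calls, 293 of those checked kept their side of the threshold without 1 animal and 151 lost it, and none reversed its direction under any alternative tried. The replicate block gave 1 call in CPA and 0 in PB, and the numbers those groups share with their controls did not pair the animals, with correlations of -0.15, 0.17 and 0.07 in CPA and -0.15, -0.05 and -0.05 in PB.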
